A study of Saccharomyces cerevisiae with 4 samples.

Results

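The genes described here encode the proteins of the mitochondrial ribosome of budding yeast (Saccharomyces cerevisiae). They were chosen by name, as the probe sets whose platform gene symbol is MRPL, MRPS, MRP or RSM followed by digits. The rule itself uses no measured values, but it was set with earlier results of these data known. The rule found 66 genes among 5667 genes and unnamed probe sets, each read by a single probe set. Of the 66, 37 encode proteins of the large subunit and 28 proteins of the small subunit. MRP8 carries the name but is not known to encode a ribosomal subunit, and it was kept in the counts because the rule takes it in. MET13 once bore a name of this form and is no ribosomal gene, and MRP35 was not analysed here.

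The mitochondrial ribosome translates the few messages encoded by mitochondrial DNA, which are mostly core subunits of the respiratory chain and of ATP synthase. Nearly all of its own proteins are encoded in the nucleus, made in the cytosol and imported. Some belong to families shared with bacterial ribosomes and others are found only in mitochondria. In glucose medium yeast ferments and can grow without respiration, and the RNA-binding protein Puf3 binds many of the messages described here.

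Total RNA came from wild-type BY4742, a laboratory haploid strain, on 2 arrays, and on 1 array each from BY4742 derivatives that carry an ada1 deletion or a gcn5 deletion. ADA1, listed as HFI1, encodes a structural subunit of the coactivator complex SAGA, and GCN5 encodes its histone acetyltransferase. A KanMX cassette replaced each gene by homologous recombination, and all strains grew at 30 °C in 5 ml of YPD, a rich glucose medium, to exponential phase at an optical density of 0.7. The labels do not say whether the wild-type arrays hold separate cultures or how many clones of each deletion were used, so p-values cover only the variation among these arrays, which may be technical. In RNA from a whole culture, fewer expressing cells and less RNA per cell cannot be told apart.

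The deleted genes matched the labels. HFI1 had a MAS5 signal of 6.70 on the ada1 array and 246 to 372 on the other 3, and GCN5 had 3.28 on the gcn5 array and 309 to 385 on the others. Markers of alpha cells, the mating type of BY4742, stood high on the wild-type arrays and lower on the deletion arrays. The receptor gene STE3 read 3645 and 3971 for wild type, 423 for ada1 and 517 for gcn5. The a-cell receptor gene STE2 was below the background level on all 4 arrays, at 49.5 to 111. The arrays fell into 2 pairs by signal range, with highest signals of 21989 and 23746 for ada1 and wild-type replicate 1 and of 12244 and 11804 for gcn5 and wild-type replicate 2. The wild-type array of like range is therefore replicate 1 for ada1 and replicate 2 for gcn5.

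Differences of the mitochondrial ribosomal protein genes from wild type were small on both deletion arrays. Their median signal was 655 on the ada1 array, 802 on the gcn5 array, and 540.1 and 741 on wild-type replicates 1 and 2. Of the 66 genes, 65 reached the background level, a signal of 166 on average, and were tested with limma within a fit of all 4541 genes that did so. The remaining gene, RSM22, which encodes a methyltransferase-like protein of the small subunit, read 144 for ada1, 206 for gcn5 and 133 and 164 for wild type. None of the 65 differed by 2-fold or more from each wild-type array, against 4.78% of all tested genes on the ada1 array and 2.49% on the gcn5 array. The log2 differences from the wild-type mean ran from -0.73 to 0.69 for ada1 and from -0.17 to 0.94 for gcn5. Their SD over the 65 genes was 0.29 and 0.25, against 0.63 and 0.51 over all tested genes. The latter include extreme genes, with differences from -8.99 to 4.01 for ada1 and from -5.52 to 4.51 for gcn5. The quartiles were less far apart in width. For ada1 they were -0.30 and 0.13 in the set, against -0.20 and 0.33 over all tested genes. For gcn5 they were 0.12 and 0.47, against -0.14 and 0.42.

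**Figure D1:**
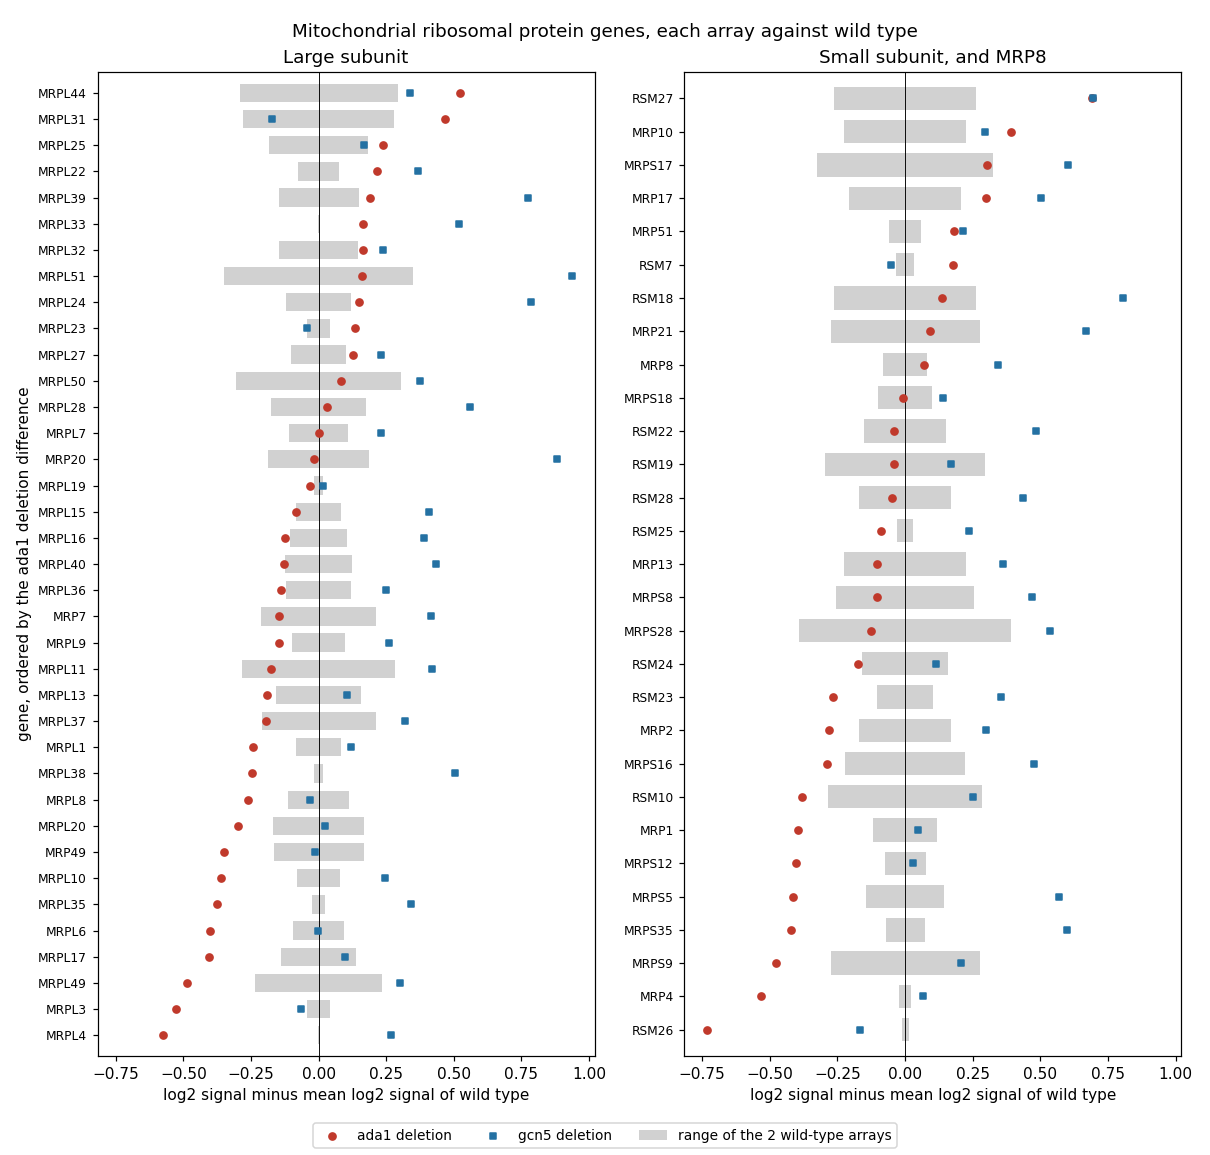
Log2 signal of each of the 66 genes on the ada1 array (red circles) and the gcn5 array (blue squares), relative to the mean of the 2 wild-type arrays at 0, with a grey bar for the range of those arrays. Genes are ordered within each subunit by the ada1 value, which runs from -0.73 for RSM26 to 0.69 for RSM27, and 46 of the 65 tested genes have their blue square to the right of the grey bar.

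The wild-type pair set the scale of what could be seen. Replicate 1 read lower than replicate 2 for 62 of the 65 genes, against 73.4% of all tested genes. The median of replicate 1 minus replicate 2 was -0.29 on the log2 scale, against -0.18 over all tested genes. After quantile normalization, which gives all arrays the same distribution, replicate 1 was lower for 38 of the 65 genes and the median was -0.06. The widest gaps between the wild-type arrays were in MRPS28, of the S15 family, with signals of 306 and 527, in MRPL51, specific to mitochondria, with 407 and 659.8, in MRPS17, of the S17 family, with 471 and 738, and in MRPL50, of the L9 family, with 509 and 777. In each of these 4 genes replicate 1 was the lower array.

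The ada1 comparison concerned the structural subunit of SAGA. The ada1 array lay below both wild-type arrays for 31 of the 65 genes (47.7%), between them for 19 and above both for 15 (23.1%). Over all tested genes the shares were 29.9% below both and 41.5% above both. The median log2 difference from wild type was -0.12, against 0.08 over all tested genes. Against replicate 1, the wild-type array of like range, the median was 0.02, against 0.15 over all genes, and 34 of 65 genes were higher, against 63.3% of all genes. Against replicate 2 it was -0.26, against -0.02. The sign of the median therefore depended on the wild-type array, while its value lay below that of all genes against each array and after quantile normalization (-0.12 against 0.05). No test of the list as a whole was made.

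RSM26 was the single gene of the set called for ada1 at an adjusted p under 0.05, which is 1 of 65 genes against 8.43% of all tested genes (5.7% called lower). RSM26 encodes a small-subunit protein specific to mitochondria (family mS42) that resembles superoxide dismutases. It read 661 for ada1, 979.6 for gcn5 and 1089 and 1108 for wild type. The ada1 array was the lowest of the 4, and the wild-type arrays nearly coincided as deposited. After quantile normalization replicate 1 minus replicate 2 of RSM26 was 0.17 on the log2 scale. The log2 difference of RSM26 from wild type as deposited was -0.73 ± 0.25 SE (adjusted p = 0.0390, limma with Benjamini-Hochberg adjustment), and -0.72 against replicate 1. Over the alternatives its adjusted p ran from 0.00323 to 0.334, and the call was lost in 4 of 7.

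The 3 next lowest genes for ada1, MRPL4, MRP4 and MRPL3, also had wild-type arrays close together in signals as deposited. After quantile normalization replicate 1 minus replicate 2 was 0.29, 0.21 and 0.32 on the log2 scale in these genes. MRPL4, of the L29 family at the exit of the peptide tunnel, read 141 for ada1 against 210.2 and 209 for wild type (log2 difference -0.57 ± 0.36 SE). Its ada1 signal is under the background level, and with signals raised to that level the difference was -0.34. MRP4, the S2 homolog, read 294 against 419 and 432 (-0.53 ± 0.40 SE). MRPL3, a large-subunit protein with a ribonuclease III fold, read 543 against 805 and 759 (-0.53 ± 0.30 SE). In these 3 genes the ada1 array lay below both wild-type arrays, and their adjusted p-values were 0.381 to 0.598 (limma). MRPL49 of the L21 family (-0.48), MRPS9 of the S9 family (-0.48), MRPS35 (-0.42) and MRPS5 of the S5 family (-0.41) completed the 8 lowest, with adjusted p of 0.212 to 0.730 (limma). Against replicate 1 these 4 were at -0.25, -0.20, -0.35 and -0.27, and against replicate 2 MRPL49 and MRPS9 were at -0.72 and -0.75.

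At the other end stood RSM27, a small-subunit protein specific to mitochondria (family mS33). It read 837 for ada1, 839.8 for gcn5 and 433 and 622 for wild type, so that both deletion arrays lay above both wild-type arrays. The log2 difference for ada1 was 0.69 ± 0.31 SE (adjusted p = 0.1995, limma), 0.95 against replicate 1 and 0.43 against replicate 2. It passed the threshold after quantile normalization (adjusted p = 0.0422, limma) and after scaling to a common median (0.0124), with a range of 0.0124 to 0.389 over the alternatives. Quantile normalization gave 2 calls among the 65 genes, against 14.5% of all tested genes.

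MRPL44, of the large subunit, read 889 for ada1 against 505 and 756 for wild type (0.52 ± 0.29 SE). MRPL31, also of the large subunit, read 1421 against 846 and 1247 (0.47 ± 0.23 SE). MRP10, a small-subunit protein with paired cysteine motifs, read 1433 against 934 and 1278 (0.39 ± 0.22 SE). All 3 are specific to mitochondria and had their ada1 array above both wild-type arrays, with adjusted p-values of 0.278 to 0.395 (limma). Their differences depended on the wild-type array, at 0.82, 0.75 and 0.62 against replicate 1 and 0.23, 0.19 and 0.17 against replicate 2. MRPS17 (0.30), MRP17 of the S6 family (0.30), MRPL25 (0.24) and MRPL22 of the L22 family (0.22) completed the 8 highest, with adjusted p of 0.732 to 0.890 (limma). Against replicate 1 these 4 were at 0.63, 0.51, 0.42 and 0.29, and against replicate 2 at -0.02, 0.09, 0.05 and 0.14, with the ada1 array of MRPS17 between the wild-type arrays.

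**Figure D2:**
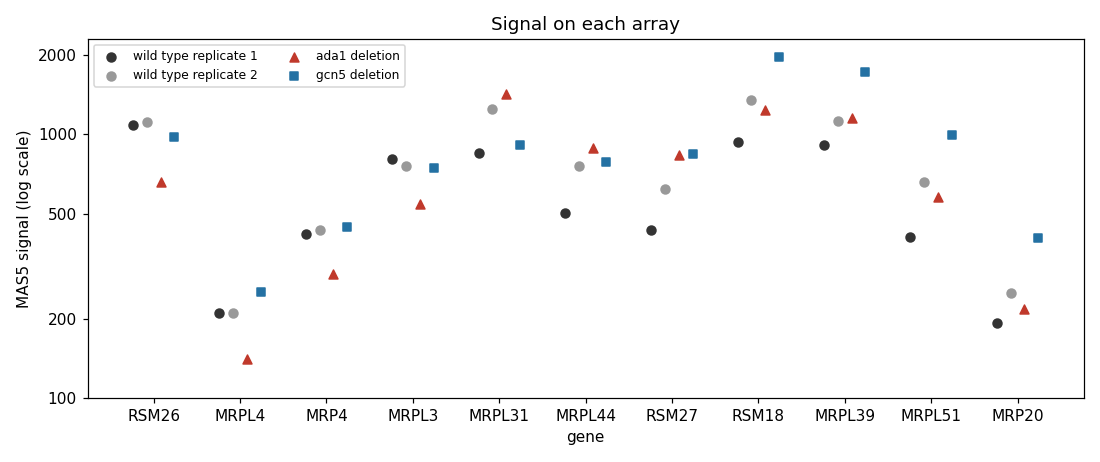
MAS5 signal (log scale) of 11 of the genes on each of the 4 arrays, with circles for wild type, triangles for the ada1 array and squares for the gcn5 array. The triangle is lowest for RSM26, MRPL4, MRP4 and MRPL3. The square is highest for RSM18, MRPL39, MRPL51 and MRP20, and also for MRPL4, MRP4 and RSM27.

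The ada1 differences varied with gene size. Coding length here is the length of the RefSeq gene record, from which introns were not taken out. It ranged from 213 to 1887 bases over the 66 genes. All 66 lengths were multiples of 3, against 96.8% over all probe sets with a length, so some lengths are not coding sequence alone. Across the 65 tested genes, the log2 difference for ada1 correlated with log2 coding length at Pearson's r = -0.46 (Spearman's rho = -0.44). Across 4393 tested genes with a known length, which were not limited to the lengths of the set, r was -0.01. These are descriptions across genes, which share the same 3 arrays and are not independent replicates. Against replicate 1 alone r of the set was -0.49, against replicate 2 alone -0.37, and after quantile normalization -0.50. Wild-type replicate 1 minus replicate 2 also varied with length among these genes, at r = 0.33, and its part in the ada1 pattern was not tested. For gcn5 r of the set was -0.18, with -0.06 against replicate 2, -0.26 against replicate 1 and -0.28 after quantile normalization. In other lists the ada1 difference also had a negative r with length. It was -0.22 across 36 nuclear genes of the respiratory chain and ATP synthase (-0.29 against replicate 1). Across 128 cytosolic ribosomal protein genes it was -0.12 (-0.19 against replicate 1), with lengths in which introns were not checked.

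The genes were also split by coding length into 3 groups of near-equal size. The 22 shortest (213 to 477 bases) had a median ada1 difference of 0.11, with 9 above and 6 below both wild-type arrays. Among the 8 highest genes for ada1, RSM27, MRPL44, MRPL31, MRP10, MRP17 and MRPL25 are in this group. The 22 of middle length (486 to 810 bases), RSM26 and MRPL49 among them, had a median of -0.11, with 4 above and 11 below. The 21 longest (837 to 1353 bases) had a median of -0.27, with 2 above and 14 below. They include the other 6 of the 8 lowest, but also MRPL22 from the 8 highest. All tested genes in the same 3 length ranges had medians of 0.19, 0.10 and 0.02, and shares of 22.8%, 26.2% and 35.4% below both wild-type arrays. Their shares above both were 50%, 40.5% and 34.9%, against 40.9%, 18.2% and 9.52% in the set. The difference between the set and all genes of like length was not tested.

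**Figure D3:**
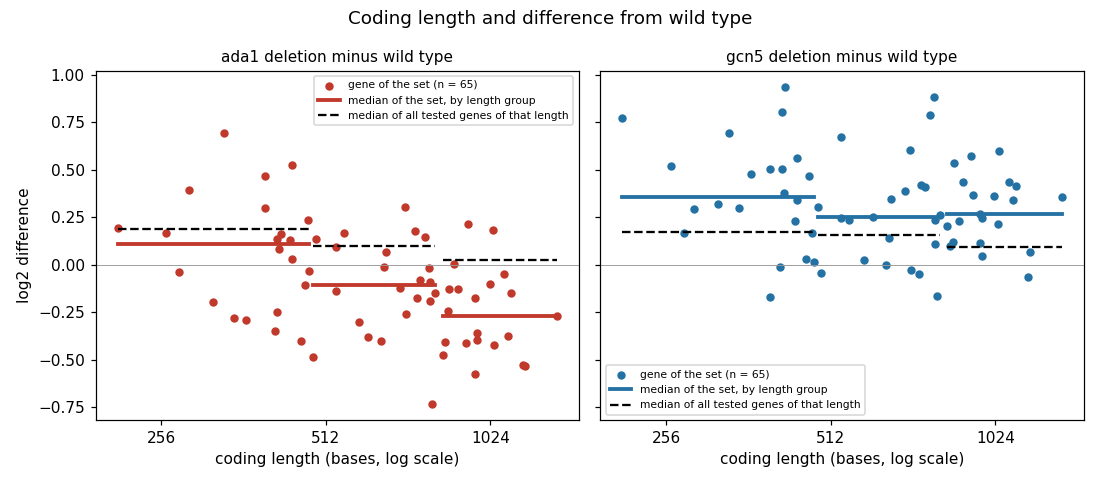
Log2 difference from wild type against coding length (log scale) for the 65 tested genes on the ada1 array (left) and the gcn5 array (right). Solid lines mark the medians of the 3 length groups, which go from 0.11 to -0.27 on the left and from 0.36 to 0.27 on the right, and dashed lines mark the medians of all tested genes of the same lengths.

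The gcn5 comparison concerned the acetyltransferase. The gcn5 array lay above both wild-type arrays for 46 of the 65 genes (70.8%), between them for 16 and below both for 3 (4.62%). Over all tested genes the shares were 53.1% above both and 24.9% below both. The 3 genes below both in signals as deposited were RSM26, MRPL3 and RSM7. The median log2 difference was 0.30, against 0.15 over all tested genes. Against replicate 2, the wild-type array of like range, it was 0.13, against 0.07 over all genes, and 47 of 65 genes were higher, against 60.2% of all genes. The median was 0.17 after quantile normalization and 0.080 after scaling to a common median, where that of all genes was 0.03 and -0.06. The count below both depended on the scaling. After quantile normalization 15 of the 65 genes (23.1%) lay below both wild-type arrays and 43 (66.2%) above both. Over all tested genes these shares were 37.2% and 43.1%.

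RSM18 and MRPL39 were called higher for gcn5, which is 2 of 65 genes against 4.65% of all tested genes (2.11% called higher). RSM18 belongs to the S18 family of the small subunit. It read 1960.5 for gcn5, 1232 for ada1 and 936 and 1345 for wild type, so that the gcn5 array was the highest and ada1 lay between the wild-type arrays. The log2 difference was 0.81 ± 0.22 SE (adjusted p = 0.00869, limma), and 0.54 against replicate 2. Its adjusted p ran from 0.00869 to 0.305 over the alternatives and missed the threshold in 4 of 7.

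MRPL39, of the L33 family and the shortest gene of the set, read 1726 for gcn5, 1153 for ada1 and 912 and 1119 for wild type. The gcn5 array again stood above the other 3. The log2 difference was 0.77 ± 0.22 SE (adjusted p = 0.0180, limma), and 0.62 against replicate 2. Its adjusted p ran from 0.0179 to 0.354 over the alternatives and missed the threshold in 5 of 7. After quantile normalization 2 of 65 genes were called, against 7.18% of all tested genes, and these were again RSM18 and MRPL39.

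The 2 genes with larger gcn5 differences were not called. MRPL51, a large-subunit protein specific to mitochondria, read 992 for gcn5, 579.9 for ada1 and 407 and 659.8 for wild type. Its log2 difference was 0.94 ± 0.32 SE (adjusted p = 0.0660, limma, from 0.00924 to 0.270 over the alternatives), and 0.59 against replicate 2. MRP20, of the L23 family beside the tunnel exit, read 403 for gcn5, 217 for ada1 and 193 and 249.5 for wild type (0.88 ± 0.39 SE, adjusted p = 0.219, limma, from 0.0451 to 0.229 over the alternatives). In both genes the gcn5 array exceeded the other 3. MRPL24 of the L28 family (0.79), RSM27 (0.69), MRP21 of the S21 family (0.67) and MRPS17 (0.60) completed the 8 highest, with adjusted p of 0.230 to 0.387 (limma). Against replicate 2, MRP20 was at 0.69 and these 4 at 0.67, 0.43, 0.39 and 0.28. With arrays scaled to a common median the 2 genes called were MRPL51 and MRP20, in place of RSM18 and MRPL39.

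Against the wild-type mean 8 of the 65 genes were lower for gcn5, and against replicate 2 there were 18. MRPL31, which read high for ada1, had 912 on the gcn5 array, between the wild-type signals of 846 and 1247 (log2 difference -0.17 ± 0.23 SE, but -0.45 against replicate 2 and 0.11 against replicate 1). RSM26 lay just below wild type (-0.17 ± 0.25 SE). MRPL3 (-0.06), RSM7 of the S7 family (-0.05), MRPL23 of the L13 family (-0.04), MRPL8 of the L17 family (-0.03), MRP49 (-0.01) and MRPL6 of the L6 family (-0.0015) made up the rest of the 8 lowest. Adjusted p-values of these 8 were 0.799 to 0.999 (limma). Against replicate 2 the last 6 were at -0.02, -0.09, -0.08, -0.14, -0.18 and -0.10, and against replicate 1 MRPL23, MRPL8, MRP49 and MRPL6 were above 0.

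The subunits had similar medians. For ada1 the median was -0.13 over 37 large-subunit genes and -0.10 over 27 tested small-subunit genes, with 18 and 13 below both wild-type arrays. For gcn5 it was 0.27 and 0.30, with 26 and 19 above both. Against the array of like range these medians were 0.0025 and 0.09 for ada1 and 0.13 and 0.15 for gcn5. The 40 genes of families shared with bacteria had medians of -0.12 for ada1 and 0.30 for gcn5, and the 24 tested genes specific to mitochondria had -0.14 and 0.27. Against the array of like range the medians were 0.08 and 0.15 for the shared genes and -0.0065 and 0.09 for the specific ones. The gcn5 array lay above both wild-type arrays for 77.5% of shared and 58.3% of specific genes. Within the large subunit these shares were 82.6% of 23 shared and 50% of 14 specific genes. The gcn5 medians there were 0.30 and 0.20, or 0.16 and 0.02 against replicate 2. Within the small subunit the shares were 70.6% of 17 shared and 70% of 10 specific genes, without that gap. Medians there were 0.30 and 0.32, or 0.15 and 0.17 against replicate 2. Over all tested genes the share was 53.1%. Differences between these groups were not tested. RSM26 and RSM27, the ends of the ada1 range, are both specific to mitochondria, and the 40 shared genes lay between -0.57 and 0.30. MRP8, outside both subunits, read 2061 for ada1, 2495 for gcn5 and 1858 and 2079 for wild type. MRPS12 and RSM19, which are direct neighbours on the chromosome, had ada1 differences of -0.40 and -0.04.

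The deletion strains were also set against each other. The gcn5 array read higher than the ada1 array for 59 of the 65 genes, against 59% of all tested genes, and the median of ada1 minus gcn5 was -0.46, against -0.11 over all genes. No gene of the set passed the threshold (limma, 0 of 65 against 6.25% of all tested genes), and at an unadjusted p under 0.05 there were 1 higher and 14 lower for ada1, against 209 and 469 of the 4541 genes tested. These 2 arrays belong to different pairs by signal range. With each strain taken relative to its own wild-type array the median was -0.13, against 0.06 over all genes, with 45 of 65 genes lower.

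The furthest apart was MRPS35, a small-subunit protein specific to mitochondria, with 221 for ada1, 448 for gcn5 and 281 and 311 for wild type. The ada1 array was the lowest and the gcn5 array the highest. Its log2 difference, ada1 minus gcn5, was -1.02 ± 0.46 SE (adjusted p = 0.235, limma, from 0.0219 to 0.242 over the alternatives), and it was called after quantile normalization and after scaling to a common median. MRPS5 followed, with 172 for ada1, 341 for gcn5 and 207 and 254 for wild type (-0.98 ± 0.44 SE), then MRP20 (-0.90) and MRPL4 (-0.84), with adjusted p of 0.216 to 0.316 (limma). In the other direction MRPL31 read 1421 for ada1 and 912 for gcn5 (0.64 ± 0.27 SE, adjusted p = 0.173, limma, from 0.00699 to 0.581 over the alternatives). RSM7 (0.23), MRPL44 (0.18) and MRPL23 (0.18) came next, with adjusted p of 0.856 to 0.888 (limma).

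Genes that act with the ribosome were read from lists. The 6 lists of mitochondrial gene expression held 75 genes, of which 58 were tested. They cover mitoribosome genes outside the naming rule, translation factors, aminoacyl-tRNA synthesis, translational activators of single mitochondrial messages, ribosome assembly and membrane tethering, and mitochondrial transcription and RNA turnover. None was called on either deletion array (limma), against 8.43% of all tested genes for ada1 and 4.65% for gcn5. At an unadjusted p under 0.05 (limma) there were 1 higher and 2 lower for ada1 and 1 higher and 0 lower for gcn5. Of all 4541 tested genes there were 340 higher and 416 lower for ada1, and 445 higher and 234 lower for gcn5. After quantile normalization 3 of the 58 were called for ada1, all lower, namely NAM9, MSK1 and OXA1, against 14.5% of all tested genes. NAM9, a small-subunit protein, read 308 against 446 and 522 for wild type (-0.65 ± 0.39 SE). MSK1, the mitochondrial lysyl-tRNA synthetase, read 283 against 408 and 502 (-0.68 ± 0.40 SE). OXA1, the insertase that receives newly made proteins at the inner membrane, read 269 against 365 and 482 (-0.64 ± 0.39 SE). In these 3 genes the ada1 array lay below both wild-type arrays, and as deposited their adjusted p-values were 0.421 to 0.462 (limma).

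The 11 mitoribosome genes that carry other names are the nearest comparison. Their median was -0.33 for ada1, with 7 below and 1 above both wild-type arrays, and 0.15 for gcn5, with 5 above and 2 below. Over all tested genes 29.9% lay below both and 41.5% above both for ada1, and 53.1% above both for gcn5. Against the array of like range the medians of the 11 were -0.08 for ada1 and -0.0020 for gcn5. They ran from NAM9 to SWS2 (0.13) for ada1 and from RML2 (-0.07) to PET123 (0.59) for gcn5. The 6 tested translation factors had medians of 0.14 for ada1 and 0.25 for gcn5. These factors had medians of 0.15 and 0.03 against the array of like range, and of -0.02 for ada1 against replicate 2. They ran from TUF1, the elongation factor Tu (-0.36), to RRF1, the recycling factor (0.40), for ada1 and from MEF2 (-0.19) to MEF1, an elongation factor G (0.67), for gcn5. The 13 tested aminoacyl-tRNA synthesis genes had medians of 0.02 and 0.20 (0.09 and 0.16 against the array of like range, and -0.05 and -0.08 after quantile normalization), with MSK1 lowest and GTF1 highest (0.44) for ada1, and MSM1 lowest (-0.01) and GTF1 highest (0.61) for gcn5.

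The 13 tested translational activators had medians of -0.13 for ada1 and 0.31 for gcn5. Against replicate 1 the ada1 median was 0.16, so its sign depended on the wild-type array, and the gcn5 median was 0.09 after quantile normalization. MSS51, the activator for COX1, was lowest for ada1 at 615 against 994 and 902 for wild type (-0.62 ± 0.26 SE, adjusted p = 0.148, limma). CBS1, an activator for cytochrome b, was highest for ada1 at 351 against 173 and 249 (0.76 ± 0.38 SE, adjusted p = 0.296, limma). For gcn5 they ran from ATP22 (0.01) to AEP1 (0.69). The 10 tested assembly and tethering genes had medians of -0.04 and 0.28 (0.03 and 0.16 against the array of like range), with OXA1 lowest and MTG1 highest (0.49) for ada1, and MBA1 lowest (0.02) and OMS1 highest (0.63) for gcn5. The 5 tested transcription and turnover genes had medians of -0.02 and 0.39 (0.10 and 0.42 against the array of like range), with MTF1 lowest (-0.14) and MIP1 highest (0.44) for ada1, and SUV3 lowest (-0.10) and the RNA polymerase gene RPO41 highest (0.66) for gcn5. PUF3 lay below the background level on average, with 146 for ada1, 192 for gcn5 and 128 and 139 for wild type.

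The nuclear genes of the respiratory chain and ATP synthase had a higher median for ada1. Of 36 tested, 8 were called higher and 0 lower for ada1 (limma; 9 higher and 2 lower at an unadjusted p under 0.05). Of all 4541 tested genes 8.43% were called, 124 higher and 259 lower, with 340 higher and 416 lower at an unadjusted p under 0.05 (limma). The ada1 array lay above both wild-type arrays for 30 of the 36 genes, against 41.5% of all tested genes. The 8 were SDH4 of succinate dehydrogenase, COX9, COX12 and COX13 of cytochrome c oxidase, and ATP3, ATP18, ATP19 and TIM11 of ATP synthase. Their list had a median of 0.35, against -0.12 for the mitochondrial ribosomal protein genes (0.35 and 0.02 against replicate 1). COX12 read 3030.5 for ada1 against 1319 and 1738 for wild type (log2 difference 1.001 ± 0.22 SE, adjusted p = 0.000238, limma). INH1 was the lowest of the list for ada1, at 240 against 419 and 432 for wild type (-0.82 ± 0.40 SE). It was not called as deposited but was called lower after quantile normalization. For gcn5, CYT1 of the cytochrome bc1 complex and ATP19 were called higher and COX9 lower. That is 8.33% of the list, against 4.65% of all tested genes. In ada1 against gcn5, 1 of the 36 genes, COX9, was called higher for ada1 and 2, CYT1 and QCR6, lower (limma). Of all tested genes 6.25% were called there. The gcn5 median of the list was 0.26, against 0.30 for the mitochondrial ribosomal protein genes.

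Cytosolic ribosomal protein genes (128 tested) had medians of 0.18 for ada1 and -0.34 for gcn5, and 0.73 for wild-type replicate 1 minus replicate 2. Against the wild-type array of like range these were -0.18 for ada1 and 0.04 for gcn5, so both signs depended on the wild-type array. Between the wild-type arrays as deposited they went the opposite way from the mitochondrial set at -0.29. After quantile normalization the cytosolic medians were -0.05 for ada1, -0.02 for gcn5 and -0.0032 between the wild-type arrays, and that opposition was gone. RPL22B, a cytosolic large-subunit gene, was the 1 of 128 called against wild type, where 8.43% of all tested genes were called for ada1 (-0.85 ± 0.25 SE for ada1, adjusted p = 0.0118, limma). Ribosome biogenesis genes (53 tested) had medians of -0.13 for ada1, 0.22 for gcn5 and -0.32 between the wild-type arrays. Against the array of like range they were at 0.04 for ada1, with the sign turned, and 0.04 for gcn5. UTP5 was the 1 of 53 called against wild type (-0.77 ± 0.22 SE for ada1, adjusted p = 0.0103, limma). In ada1 against gcn5, 1 further gene of each of these lists, not named here, was called lower for ada1 (limma). Of all tested genes 6.25% were called there. These lists are set side by side without a test of the difference between them.

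**Figure D4:**
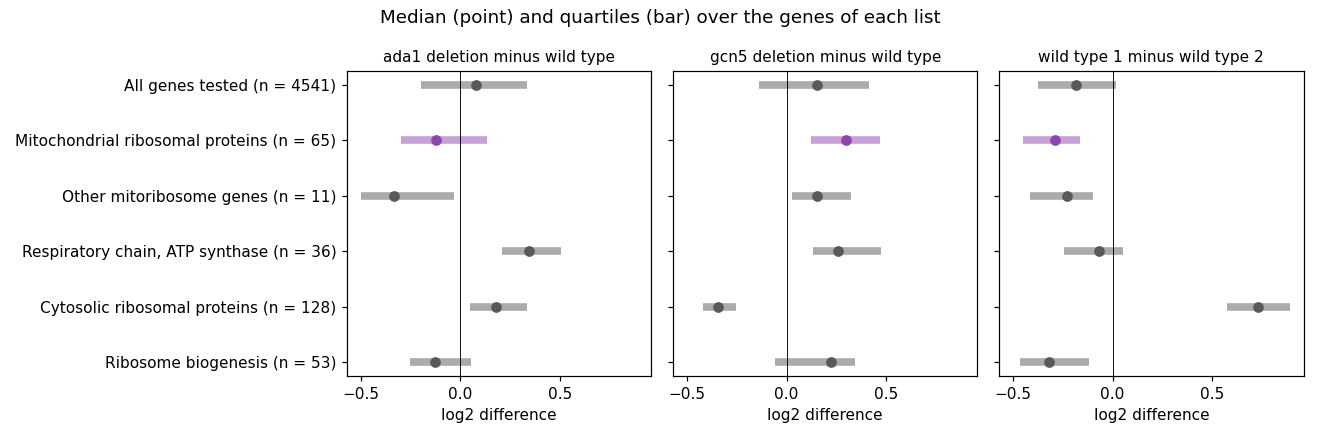
Median (point) and quartiles (bar) of the log2 difference over the tested genes of each list, for ada1 against wild type, gcn5 against wild type and the 2 wild-type arrays, in signals as deposited. The mitochondrial ribosomal protein genes (purple) lie at -0.12, 0.30 and -0.29, and the cytosolic ribosomal protein genes lie on the other side of 0 in all 3 panels, at 0.18, -0.34 and 0.73, which quantile normalization brings to -0.05, -0.02 and -0.0032.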

How the data were processed

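Each array's deposited column holds a MAS5 intensity for every probe set, linear in scale, per the submitters' processing notes and the values. The MAS5 version and scaling target are not given in the labels. Biotin labelling started from 200 ng of total RNA, per the labels' protocols. The table held 5716 probe sets, of which 5498 had a gene symbol in the platform annotation. Symbols were updated, and gene lengths and neighbours taken, from RefSeq assembly R64. These gene lengths, with introns not taken out, are called coding lengths here. Sequences were not used here.

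Where a gene had several probe sets (47 genes), the one with the highest mean log2 signal was used. The background level was the 20th percentile of mean log2 signal. Log2 signals as deposited were fitted with limma 3.58.1 (R 4.3.3; lmFit, eBayes with trend) as 1 model of 3 groups. The wild-type pair gave the only residual degree of freedom (1), so the spread of a deletion array is taken from wild type. The prior degrees of freedom were infinite, so genes of unusual spread get p-values that are too small. Benjamini-Hochberg adjustment covered all 4541 genes in the fit, with a call at an adjusted p under 0.05. The number of arrays limits the precision. Alternatives were 2 other scalings, the treatment of dim probe sets, 2 other variance priors, every probe set kept, the array pair as a block and leaving out each wild-type array. Ranges of adjusted p cover the 7 that allow a test.

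The genes, lists and tests were chosen with earlier results of these data known. The text names every gene of the set that was called, the 8 highest and 8 lowest for each strain, the 4 at each end of ada1 against gcn5, any below the background level and the 4 with the widest gap between wild-type arrays. Of each other list it names the genes called, or otherwise the highest and lowest. Genes of the cytosolic ribosomal and ribosome biogenesis lists called only in ada1 against gcn5 are not named. MRP8, MRPS12, RSM19, PUF3, STE2, STE3, NAM9, MSK1, OXA1 and INH1 were named after their values were seen.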

Additional observations from a re-analysis of the deposited data

How the results depend on the processing

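The calls rest on the spread of a single wild-type pair. Genes called for ada1 against wild type numbered 383 as deposited (124 higher, 259 lower), 657 after quantile normalization (277 and 380), 692 with arrays set to one median (296 and 396) and 245 with a single variance prior. For gcn5 against wild type they numbered 211 (96 and 115), 326 (111 and 215), 476 (162 and 314) and 123 under the same settings, and 106 with signals raised to the background level. For ada1 against gcn5 they numbered 284 (91 and 193), 511 (254 and 257), 561 (300 and 261) and 187, and 135 with signals raised. Of the mitochondrial ribosomal protein genes, 1 was called for ada1 as deposited, 2 after quantile normalization and 2 after common-median scaling, but 0 without the filter on dim probe sets, with raised signals, with a single prior or with a robust prior (limma; 2 higher and 2 lower at an unadjusted p under 0.05 as deposited). For gcn5 the 2 calls, RSM18 and MRPL39, became 1 without the filter (MRPL51) and 1 with a robust prior (RSM18), were replaced by MRPL51 and MRP20 with a common median, and became 0 with raised signals or a single prior (9 higher and 0 lower at an unadjusted p under 0.05 as deposited). Over all 4541 tested genes the unadjusted counts as deposited were 340 higher and 416 lower for ada1, and 445 higher and 234 lower for gcn5 (limma). For ada1 against gcn5, 0 became 1 after quantile normalization and 3 after common-median scaling. The median difference of the set for gcn5 was 0.30 as deposited and 0.080 with a common median, and that of ada1 against gcn5 was -0.46 and, with the array pair as a block, -0.13. Leaving out 1 wild-type replicate at a time gave medians of -0.26 to 0.02 for ada1 and 0.13 to 0.46 for gcn5, as values without a test. RSM26 for ada1 and RSM18 and MRPL39 for gcn5 kept their sign under every alternative run. Of the 29 tested genes that the naming rule takes from the set, 5 changed sign for ada1 without wild-type replicate 1 and 5 for gcn5 without replicate 2. No paired analysis was possible because only the wild-type arrays carry replicate numbers, and the block of array pairs left no residual degrees of freedom. Where the construction of an alternative does not show the cause, the cause was not tested.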

Other observations

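Among 8 tested regulators linked to these genes, HAP1 was the one called, and only between the deletion strains, where 6.25% of all tested genes were called. It read 591 for ada1, 1146 for gcn5 and 785 and 805 for wild type, so that the deletion arrays lay on opposite sides of the wild-type arrays. The log2 difference, ada1 minus gcn5, was -0.95 ± 0.31 SE (adjusted p = 0.0393, limma), and it was also called after quantile normalization. Against wild type the adjusted p was 0.479 for ada1 and 0.338 for gcn5 (limma). The 2 deletion arrays belong to different pairs by signal range, and against the array of like range HAP1 was at -0.41 for ada1 and 0.51 for gcn5. The 8 regulators had medians of -0.04 for ada1 and 0.43 for gcn5, against 0.08 and 0.15 over all tested genes. Against the array of like range their medians were 0.08 for ada1, with the sign turned, and 0.32 for gcn5.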
